A study of Mus musculus with 6 samples.

Results

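A set of 40 interferon-stimulated genes were followed in 6 mice with lung cancer, and 38 of them were found by symbol among the 18238 genes of the count table. They were chosen by name, as genes known to be induced by type I or type II interferon. No threshold on a measured value was used, but earlier results of these data were known when the list was made. Mx1 and Mx2, which encode dynamin-like antiviral GTPases, were not analysed here. All 38 genes passed the expression filter. The mice formed 2 groups of 3. Artemisinin replicates 1 to 3 (GF1 to GF3) had lung cancer and received artemisinin, a plant sesquiterpene lactone used against malaria. Model replicates 1 to 3 (MF1 to MF3) had lung cancer and are labelled as the model, without treatment named, so both groups carried the disease and neither was a healthy control. No tissue, tumour model, strain, age, dose or duration was stated, and each library was taken as 1 mouse. Lung epithelial markers were abundant in every library, the 9 alveolar type 2 markers summing to between 6523 and 20536 normalised CPM with artemisinin and between 48387 and 72155 in the model.

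Interferons are secreted proteins that warn cells of infection and tissue damage. Type I interferons signal through a receptor of the Ifnar1 and Ifnar2 chains to a complex that holds STAT2 and IRF9 and binds the interferon-stimulated response element of target promoters. Type II interferon, the product of Ifng, signals through the Ifngr1 and Ifngr2 chains, and its target promoters carry the gamma-activated site. The targets include sensors of viral RNA, transcription factors that amplify the response, enzymes and GTPases that block pathogens, and proteasome subunits that change which peptides are presented. In tumours, such genes are read as a trace of interferon reaching tumour, stromal or immune cells.

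Of these genes, 2 rose with artemisinin, both of the 2-prime-5-prime oligoadenylate synthetase (OAS) family. Oas3 was 4.13-fold and Oasl1 2.72-fold higher, while the guanylate-binding proteins (GBP), the immunity-related GTPases (IRG), the IFIT family and the immunoproteasome subunits each had 0 called members. The 2 calls made 5.26% of the 38 genes. Of all 15242 genes tested, 4.47% were called in either direction and 2.17% were called higher, so the share called was near the background. Calls were made with edgeR's quasi-likelihood test at an adjusted p under 0.05 over all genes tested. None fell in that test, in which 1 gene had an unadjusted p under 0.05 and a negative fold change (2.63%, against 11% of all genes tested). DESeq2 also called 0 lower, where it called 6.37% of all genes lower.

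Most of the fitted changes were nevertheless above 0. The log2 fold change of artemisinin over the model was positive for 29 of 38 genes (76.3%), against 53.2% of all genes tested, and the median was 0.31, against 0.04 over all genes. Artemisinin values lay wholly above model values for 8 genes (21.1%), where 16.3% of all genes did so, and wholly below them for 0 genes, where 17.3% of all genes did so (33.6% in either direction). An unadjusted p under 0.05 with a positive fold change was found for 11 genes (28.9%), against 13.7% of all genes (24.7% in either direction). DESeq2 called 7 of the 38 higher, namely Oas3, Oasl1, Oas2, Irf7, Zbp1, Ifi44 and Ifi27l2a, where it called 7.7% of all genes higher. With any 1 of the 3 model libraries left out edgeR called 0 of the 38, with artemisinin replicate 1 or 3 left out it called Oas3 only, and with artemisinin replicate 2 left out it called Oas3, Oas2, Irf7 and Ifi27l2a. In bulk tissue, fewer or more cells of a type and less or more RNA per cell cannot be told apart.

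**Figure D1:**
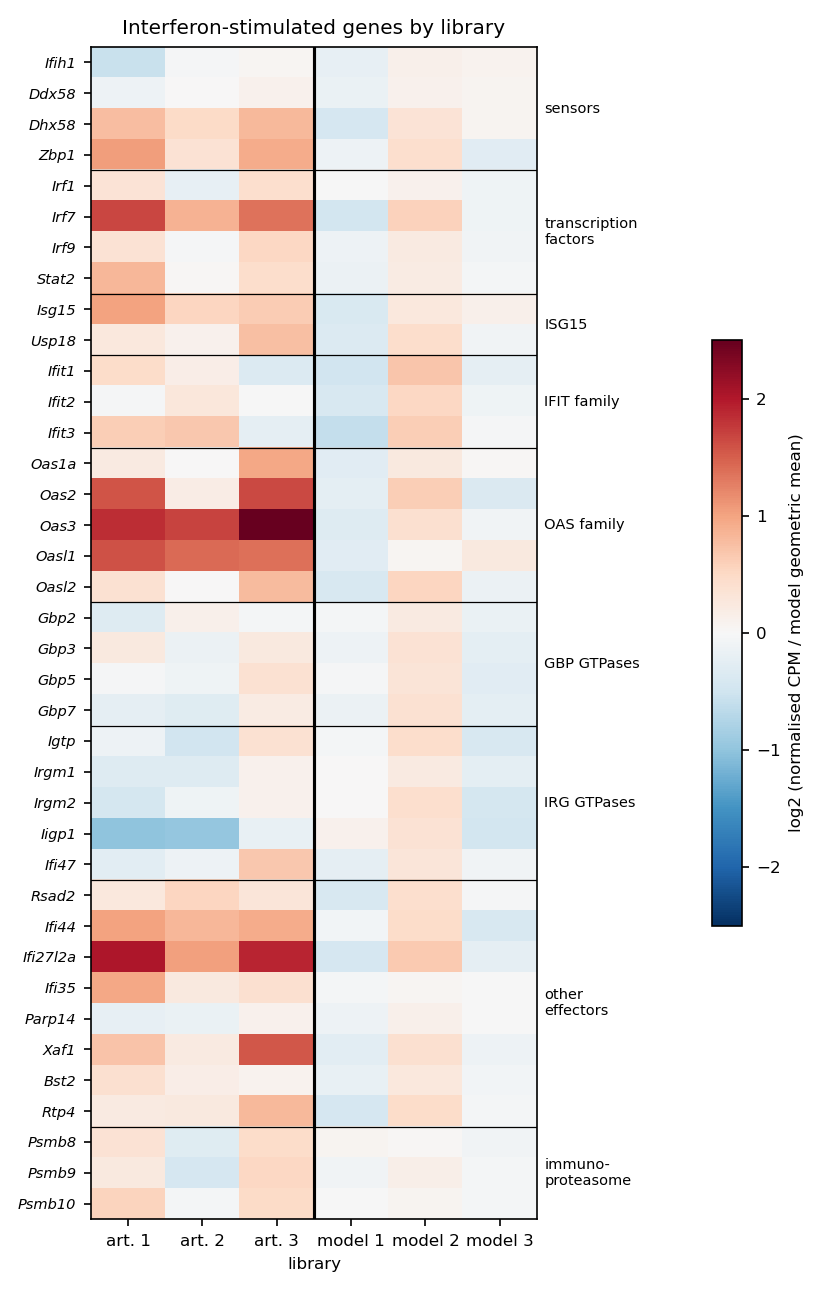
Level of each of the 38 genes in each library as log2 normalised CPM relative to the geometric mean of the 3 model libraries, with artemisinin libraries on the left and rows grouped by role. The OAS gene Oas3 stands out in all 3 artemisinin libraries, and Oas2, Irf7 and Ifi27l2a stand out most in artemisinin replicates 1 and 3. Model replicate 2 is the highest model library in 36 of 38 rows.

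Promoter sequence was examined because the response elements define this class of genes. RefSeq promoter windows on GRCm38.p6 were matched for 30 of the 38 genes, and the 250 bases before each start in that promoter table were searched on both strands. For 4 genes with more than 1 start, a match in any window counted. In 9 of the 30 the start nearest to the outer end lay 8 to 410 bases inside the annotated gene span, so these windows cover part of the span, and all positions are given from the table's start. The core of the interferon-stimulated response element, GAAANNGAAA or TTTCNNTTTC on the other strand, was present in 15 of the 30 (50%), against 3.37% of 12051 tested genes with a window. The core of the gamma-activated site, TTCNNNGAA, which reads the same on both strands, was present in 9 of the 30 (30%), against 7.31%. Both cores together were present in 6 of the 30 (20%), against 0.44%. Matches of the response element core were found in 4 of 4 GBP genes and 3 of 4 IRG genes with a window, and in 2 of 4 OAS genes, Oas1a and Oas3. The core was thus present in Oas3, which rose, and in genes that were not called, but not in the window of Oasl1, which also rose. These are matches of letters only and do not show that a factor binds. The windows of Oas3 and Oasl1, the genes that rose, of Isg15, with overlapping copies of the core, and of Irgm2, with both cores, are printed 5′ to 3′ on the strand of the gene, with matched letters in capitals. The Oas3 window (chr5:120777660-120777909, minus strand) has a single response element core, and its start lies 25 bases inside the gene span. The Oasl1 window (chr5:114922990-114923239, plus strand) has no match of either core in these letters, and its start lies 97 bases inside the gene span, so bases farther upstream were not fully searched. The Isg15 window (chr4:156200819-156201068, minus strand) has 3 overlapping response element cores between 78 and 57 bases before the start. The Irgm2 window (chr11:58214727-58214976, plus strand) has a gamma-activated site core that begins 75 bases before the start and a response element core that begins 64 bases before it. A stretch of bases just after this start was not found near the beginning of an annotated Irgm2 transcript, while those of Oas3, Oasl1 and Isg15 were found in theirs.
Oas3: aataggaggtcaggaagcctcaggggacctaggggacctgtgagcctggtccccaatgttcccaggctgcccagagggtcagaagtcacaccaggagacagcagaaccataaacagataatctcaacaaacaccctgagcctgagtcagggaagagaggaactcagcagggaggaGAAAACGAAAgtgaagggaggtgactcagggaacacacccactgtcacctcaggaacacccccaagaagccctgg
Oasl1: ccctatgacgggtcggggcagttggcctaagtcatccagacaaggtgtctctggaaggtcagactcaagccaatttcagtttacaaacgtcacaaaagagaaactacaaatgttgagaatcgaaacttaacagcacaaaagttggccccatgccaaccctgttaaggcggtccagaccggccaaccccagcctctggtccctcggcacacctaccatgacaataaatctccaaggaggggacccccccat
Isg15: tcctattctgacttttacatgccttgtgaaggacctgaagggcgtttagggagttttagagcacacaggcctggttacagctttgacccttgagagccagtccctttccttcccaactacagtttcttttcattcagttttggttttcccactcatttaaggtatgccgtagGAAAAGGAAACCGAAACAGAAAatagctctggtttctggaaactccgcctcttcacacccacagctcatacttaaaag
Irgm2: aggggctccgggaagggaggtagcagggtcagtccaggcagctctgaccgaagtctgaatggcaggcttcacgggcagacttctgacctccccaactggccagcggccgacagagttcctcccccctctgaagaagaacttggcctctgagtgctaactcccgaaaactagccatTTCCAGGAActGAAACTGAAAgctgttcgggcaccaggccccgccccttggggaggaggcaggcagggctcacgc

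The sensors of foreign nucleic acid were not called. Zbp1, which encodes a sensor of Z-form nucleic acid that can start necroptosis, had 45.9, 28.6 and 42.0 normalised CPM with artemisinin, against 20.2, 29.6 and 18.1 in the model. The groups overlapped through artemisinin replicate 2 and model replicate 2, and the difference was not called (log2 0.78 ± 0.25, SE; edgeR adjusted p = 0.124). Dhx58, which encodes the RIG-I-like helicase LGP2, had 20.3, 16.5 and 21.0 normalised CPM with artemisinin, against 8.93, 15.1 and 12.5 in the model. All artemisinin values of Dhx58 lay above all model values, but the gene missed the threshold (log2 0.67 ± 0.24, SE; edgeR adjusted p = 0.147). The genes of the RNA helicases that signal through MAVS had fold changes near 0. Ddx58, the RIG-I gene, averaged 66.7 ± 5.26 normalised CPM with artemisinin and 66.8 ± 6.50 in the model (SD, n = 3 each). Ifih1, the MDA5 gene, had 33.3, 48.0 and 50.6 normalised CPM with artemisinin, against 42.7, 53.2 and 51.8 in the model. Artemisinin replicate 1 was the lowest and the groups overlapped (log2 −0.16 ± 0.19, SE; edgeR adjusted p = 0.618).

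Among the transcription factors Irf7 differed most. IRF7 is itself induced by interferon and drives further type I interferon genes. Irf7 (chromosome 7, 141263183 to 141266499, GRCm38) had 81.8, 47.0 and 65.6 normalised CPM with artemisinin, against 18.7, 38.2 and 23.9 in the model. The groups did not overlap, yet the 2.41-fold difference was not called (log2 1.27 ± 0.31, SE; edgeR adjusted p = 0.0645). Stat2 and Irf9, which encode subunits of the type I complex, had log2 fold changes of 0.46 ± 0.21 and 0.30 ± 0.18 (SE; edgeR adjusted p = 0.236 and 0.34). In both genes artemisinin replicate 2 stood below model replicate 2. Irf1, an early mediator of the type II response, had 149.5, 103.5 and 159.6 normalised CPM with artemisinin, against 118.0, 127.7 and 110.7 in the model. Artemisinin replicate 2 was the lowest of all, and the difference was the smallest of the 4 factors (log2 0.21 ± 0.19, SE; edgeR adjusted p = 0.507).

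Isg15 encodes a ubiquitin-like protein that is conjugated to other proteins during the response. It had 24, 17.3 and 18.6 normalised CPM with artemisinin, against 9.14, 14.3 and 13.0 in the model. Every artemisinin value lay above every model value, but the 1.64-fold difference was not called (log2 0.71 ± 0.23, SE; edgeR adjusted p = 0.127). Usp18, which encodes the protease that removes ISG15 and also restrains the type I receptor, had 17.8, 16.0 and 24.8 normalised CPM with artemisinin, against 11.6, 20.1 and 13.9 in the model. Its groups overlapped because model replicate 2 exceeded artemisinin replicates 1 and 2 (log2 0.36 ± 0.27, SE; edgeR adjusted p = 0.424).

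The IFIT family, proteins with tetratricopeptide repeats that bind viral RNA, was not called and overlapped between groups in all 3 genes. Ifit1, Ifit2 and Ifit3 lie together on chromosome 19, between 34550550 and 34650009. Ifit1 had 50.5, 40.9 and 28.9 normalised CPM with artemisinin, against 26.3, 59.0 and 31.5 in the model. Its lowest and highest values were both from model mice (log2 0.04 ± 0.34, SE; edgeR adjusted p = 0.947). Ifit2 averaged 69.5 ± 8.97 normalised CPM with artemisinin and 67.6 ± 22.7 in the model. For Ifit3 the values were 97.4, 102.1 and 54.4 with artemisinin, against 42.3, 98.0 and 62.2 in the model (log2 0.33 ± 0.35, SE; edgeR adjusted p = 0.582). Artemisinin replicate 3, the highest of its group in most of the 38 genes, was the lowest of its group for Ifit1 and Ifit3. The signs of the Ifit1 and Ifit2 changes turned when single libraries were left out. The annotated span of Ifit1 overlaps its paralog Ifit1bl1 over 9121 bases, so reads of these copies may be split.

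The OAS family showed the largest differences of any subgroup and held both calls. OAS enzymes bind double-stranded RNA and make short oligoadenylates that activate RNase L. The 5 genes lie on chromosome 5, Oasl2 and Oasl1 between 114896926 and 114937911 and Oas2, Oas3 and Oas1a between 120730333 and 120907544. All 5 had positive fold changes, with a median log2 of 1.20. Oas3 had 20.2, 18.1 and 32.7 normalised CPM with artemisinin, against 4.49, 7.38 and 5.29 in the model. The lowest artemisinin value was well above the highest model value. Oas3 rose by 2.05 ± 0.31 on the log2 scale (SE; edgeR adjusted p = 0.0213). The call was lost without model replicate 1, 2 or 3 (edgeR adjusted p = 0.11, 0.0542 and 0.0946), while the fold change stayed between 1.70 and 2.25 on the log2 scale with any 1 library left out.

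Oasl1 encodes an OAS-like protein without synthetase activity that in mice has been described to restrain translation of Irf7. It had 6.21, 5.51 and 5.41 normalised CPM with artemisinin, against 1.70, 2.13 and 2.46 in the model. The artemisinin values were tightly grouped and clear of the model values. Oasl1 rose by 1.44 ± 0.31 on the log2 scale (SE; edgeR adjusted p = 0.0494), at the edge of the threshold. Its call was lost when any 1 of the 6 libraries was left out (edgeR adjusted p between 0.0526 and 0.194), with log2 fold changes between 1.31 and 1.57.

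The other OAS genes overlapped between groups. Oas2, the neighbour of Oas3, had 59.5, 22.7 and 62.4 normalised CPM with artemisinin, against 16.8, 30.4 and 15.5 in the model. Artemisinin replicate 2 lay below model replicate 2, and the 2.30-fold difference was not called (log2 1.20 ± 0.42, SE; edgeR adjusted p = 0.145). Oas1a, the synthetase gene at the end of the cluster, had 23.4, 20.3 and 39.1 normalised CPM with artemisinin, against 16.5, 23.8 and 20.5 in the model. Only artemisinin replicate 3 stood apart there (log2 0.45 ± 0.28, SE; edgeR adjusted p = 0.353). Oasl2, the neighbour of Oasl1, had 43.7, 33.8 and 58.5 normalised CPM with artemisinin, against 25.6, 49.2 and 30.4 in the model. Model replicate 2 lay above artemisinin replicates 1 and 2 (log2 0.37 ± 0.29, SE; edgeR adjusted p = 0.458). OAS genes are close paralogs, and reads shared between copies could be split or lost in the counting.

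**Figure D2:**
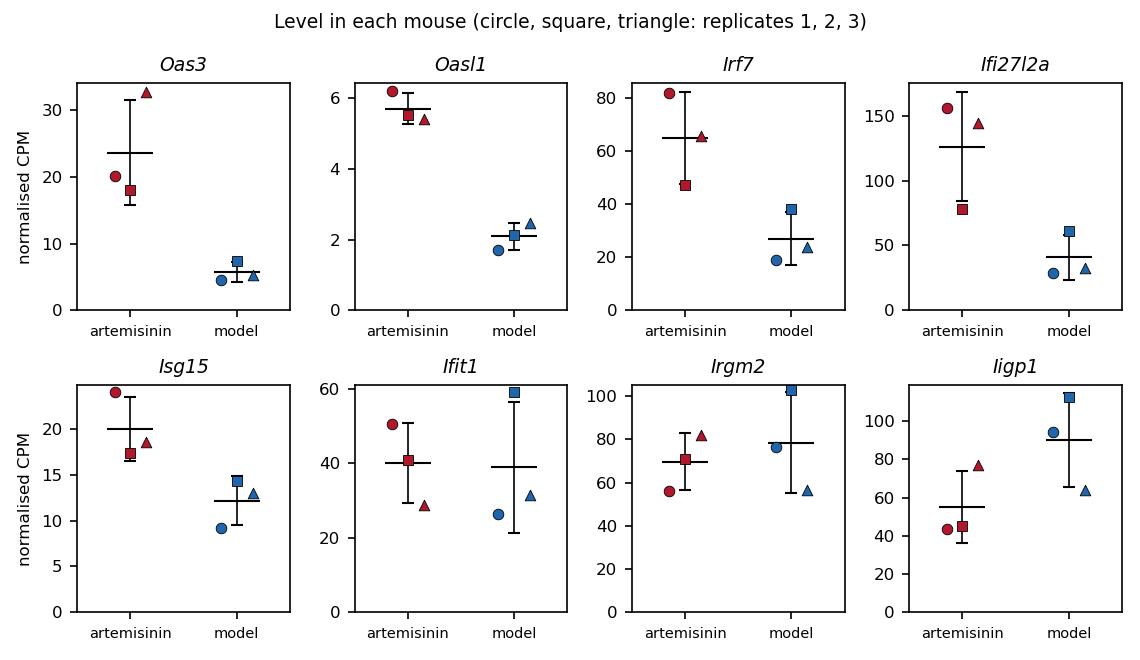
Normalised CPM of 8 genes in each mouse, artemisinin left and model right in each panel, with symbols for the replicates and a bar and whiskers for the mean ± SD (n = 3 each). Oas3, Oasl1, Irf7, Ifi27l2a and Isg15 do not overlap between groups, while Ifit1, Irgm2 and Iigp1 do, and model replicate 2 (square) is the highest model mouse in every panel except Oasl1.

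The GBP and IRG GTPases, which attack vacuoles of intracellular pathogens and respond strongly to type II interferon, were not called. Of the 9 genes, 3 had positive fold changes. The median log2 was −0.0032 for the GBP genes and −0.17 for the IRG genes, and with scaling by library totals alone 0.10 and −0.06. Gbp5, Gbp7, Gbp3 and Gbp2 lie in that order on chromosome 3, between 142496934 and 142638008. Gbp7 had 106.7, 100.6 and 143.6 normalised CPM with artemisinin, against 112.0, 162.9 and 105.4 in the model, and Gbp3 had 62.5, 47.9 and 62.5 with artemisinin, against 48.5, 68.4 and 44.7 in the model. Both overlapped, at log2 −0.12 ± 0.22 for Gbp7 and 0.10 ± 0.20 for Gbp3 (SE; edgeR adjusted p = 0.765 and 0.782). Gbp5 stood between them. Gbp2, which was the most abundant of them per length, had 79.4, 108.5 and 96.4 normalised CPM with artemisinin, against 95.7, 115.8 and 88.5 in the model. The groups overlapped over most of their range (log2 −0.08 ± 0.17, SE; edgeR adjusted p = 0.797).

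The regulatory IRG genes Igtp, Irgm1 and Irgm2, whose products hold the effector GTPases inactive on the cell's own membranes, had log2 fold changes of −0.07 ± 0.28, −0.17 ± 0.18 and −0.17 ± 0.24 (SE; edgeR adjusted p = 0.888, 0.579 and 0.679). Irgm2 had 56.0, 71.0 and 82.0 normalised CPM with artemisinin, against 76.4, 102.6 and 56.5 in the model. Model replicate 2 was the highest and model replicate 3 close to the lowest. Of the effector genes, Ifi47 had 59.2, 65.2 and 113.5 normalised CPM with artemisinin, against 61.1, 87.5 and 67.3 in the model. Artemisinin replicate 3 was the highest, and the groups overlapped (log2 0.14 ± 0.27, SE; edgeR adjusted p = 0.768). Iigp1, the other effector gene, was the gene of the set with the lowest fold change. It had 43.7, 45.1 and 77.0 normalised CPM with artemisinin, against 94.4, 112.4 and 63.8 in the model. The groups overlapped through artemisinin replicate 3 and model replicate 3, and the gene was not called (log2 −0.71 ± 0.29, SE; unadjusted p = 0.0425, edgeR adjusted p = 0.189).

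The 8 remaining effectors were a mixture of larger positive and near-level genes, none of them called. Ifi27l2a encodes a small mitochondrial and nuclear membrane protein strongly induced by type I interferon. It had 156.1, 78.4 and 144.2 normalised CPM with artemisinin, against 28.8, 61.0 and 32.9 in the model. The groups did not overlap, and the 3.09-fold difference narrowly missed the threshold (log2 1.63 ± 0.36, SE; edgeR adjusted p = 0.0519). The annotated spans of Ifi27l2a and its relative Ifi27 overlap over 6057 bases, and Ifi27 had a fold change near 0 (log2 0.02, edgeR adjusted p = 0.951). Ifi44, a cytosolic antiviral protein gene, had 30.1, 26.7 and 28.6 normalised CPM with artemisinin, against 14.3, 20.7 and 11.3 in the model, also without overlap (log2 0.88 ± 0.23, SE; edgeR adjusted p = 0.0809).

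Xaf1, which encodes a pro-apoptotic binding partner of the inhibitor XIAP, had 35.2, 25.3 and 63.3 normalised CPM with artemisinin, against 18.0, 28.4 and 19.7 in the model, and overlapped (log2 0.91 ± 0.35, SE; edgeR adjusted p = 0.172). For Ifi35 the values were 85.3, 51.5 and 57.5 with artemisinin, against 42.3, 45.5 and 43.4 in the model. They did not overlap, but the gene was not called (log2 0.57 ± 0.20, SE; edgeR adjusted p = 0.148). The other effectors overlapped, with log2 fold changes of 0.40 ± 0.26 for Rtp4, 0.33 ± 0.29 for Rsad2, the viperin gene, and 0.21 ± 0.16 for Bst2, the gene of the virus-tethering protein tetherin (SE; edgeR adjusted p = 0.376, 0.498 and 0.445). Parp14, a mono-ADP-ribosyltransferase gene, had 103.7, 106.4 and 127.3 normalised CPM with artemisinin, against 108.7, 130.2 and 118.6 in the model, the lowest fold change of this group (log2 −0.08 ± 0.15, SE; edgeR adjusted p = 0.743).

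The immunoproteasome subunits Psmb8, Psmb9 and Psmb10 replace the catalytic subunits of the standard proteasome, encoded by Psmb5, Psmb6 and Psmb7, and were not called. Psmb8 had 155.4, 97.9 and 165.7 normalised CPM with artemisinin, against 126.2, 124.0 and 113.1 in the model. Artemisinin replicate 2 was below all model mice and the other two artemisinin mice were above them, and the same held for Psmb9. Psmb9 had 76.7, 48.0 and 92.6 with artemisinin, against 60.5, 71.8 and 62.2 in the model. For Psmb10 the values were 83.9, 55.5 and 79.9 with artemisinin, against 56.8, 59.8 and 55.4 in the model. Log2 fold changes were 0.21 ± 0.21, 0.16 ± 0.24 and 0.35 ± 0.18 for Psmb8, Psmb9 and Psmb10 (SE; edgeR adjusted p = 0.566, 0.693 and 0.262). The standard subunits Psmb5, Psmb6 and Psmb7 stood at −0.01 ± 0.24, 0.23 ± 0.19 and −0.18 ± 0.16 (SE), and 0 of 14 genes of the standard core particle were called, of which 1 had an unadjusted p under 0.05, while DESeq2 called 0. The ratio of summed FPKM of Psmb8, Psmb9 and Psmb10 over Psmb5, Psmb6 and Psmb7 was 1.03, 0.695 and 1.34 with artemisinin, against 0.799, 0.937 and 0.880 in the model. The model mice lay inside the range of the artemisinin mice.

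**Figure D3:**
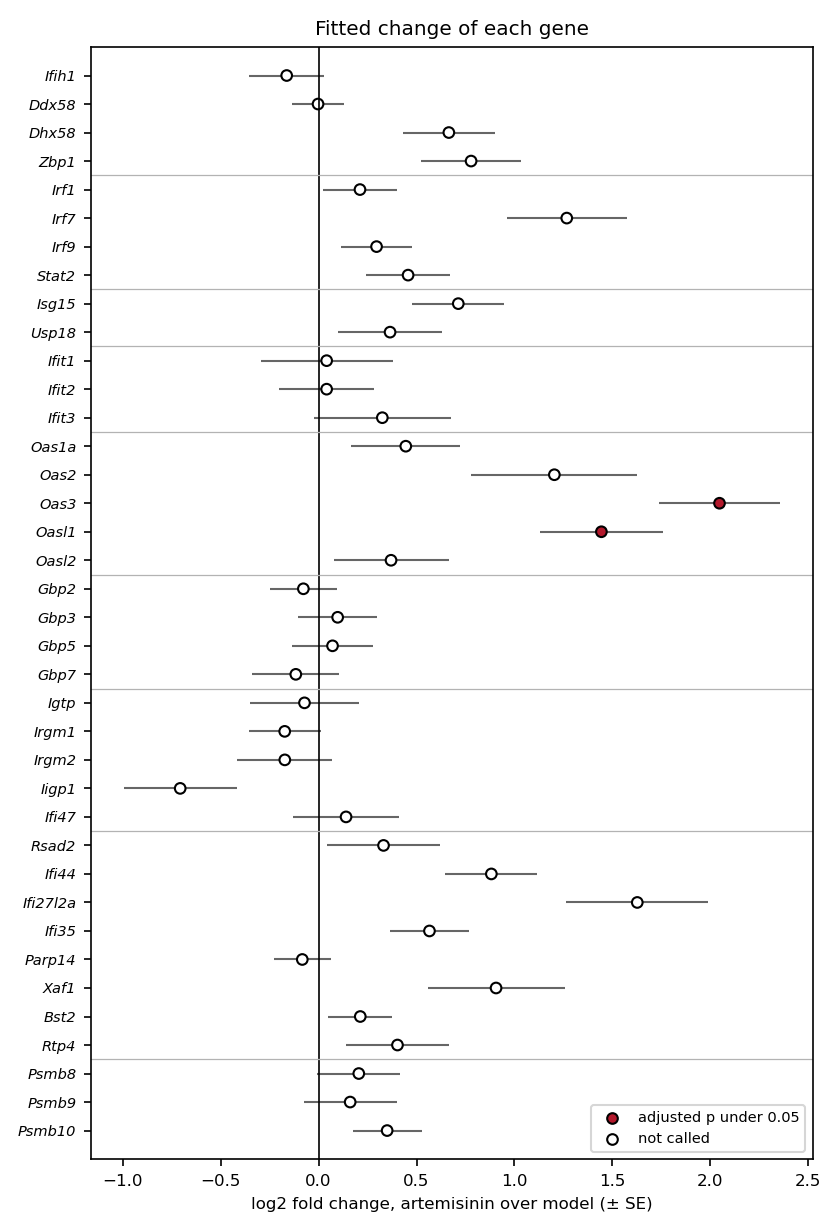
Fitted log2 fold change of artemisinin over the model for each of the 38 genes, with standard errors as bars, in the same order of roles. The filled points mark Oas3 and Oasl1, the 2 genes with an adjusted p under 0.05, and Iigp1 is farthest to the left at −0.71.

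Levels within the set differed widely per length. In FPKM, the counts per gene length and library total that the authors deposited, Bst2 stood at 124.6 ± 16.7 with artemisinin and 100.2 ± 18.3 in the model, where it was the highest. Psmb8 followed in the model, at 118.8 ± 34.7 FPKM with artemisinin and 95.4 ± 5.84 in the model, and these neighbours did not differ beyond their spread. Ifi27l2a held the fourth place in the model and the first with artemisinin, at 149.0 ± 53.6 FPKM with artemisinin and 44.8 ± 20.1 in the model. The lowest levels in the model belonged to the genes that rose. Oasl1 had 2.61 ± 0.26 FPKM with artemisinin and 0.893 ± 0.167 in the model, and Oas3 had 5.0 ± 1.78 with artemisinin and 1.12 ± 0.314 in the model (SD, n = 3 each). Rsad2 was next lowest, at 1.99 ± 0.129 FPKM with artemisinin and 1.49 ± 0.446 in the model.

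The genes varied together between mice of the same group. Model replicate 2 was the highest of the model mice for 36 of 38 genes (94.7%), Oasl1 and Psmb8 being the exceptions, where it was the highest for 32.1% of all genes tested. Model replicate 1 was the lowest for 24 of the 38 and model replicate 3 for 14. The median coefficient of variation of the 38 genes was 22.6% with artemisinin and 24.2% in the model, against 22.8% and 11.8% over all genes tested. As log2 ratios to the mean of the model mice, medians over the 38 genes were 0.35, 0.08 and 0.44 in artemisinin replicates 1, 2 and 3 and −0.17, 0.35 and −0.09 in model replicates 1, 2 and 3. By this measure model replicate 2 was as high as artemisinin replicate 1 and above artemisinin replicate 2. Artemisinin replicate 2 was the lowest of its group for 24 of the 38 genes (63.2%), against 30.2% of all genes, and artemisinin replicate 3 was the highest for 22 (57.9%), against 27.6%. Without model replicate 2 the median log2 fold change of the 38 genes was 0.41, and without artemisinin replicate 3 it was 0.13.

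Ifng and the summed markers of several cell types also varied between mice. Ifng, made by T and natural killer cells, had 0.776, 0.536 and 2.29 normalised CPM with artemisinin, against 0.334, 1.70 and 0.819 in the model, and was highest in artemisinin replicate 3 and model replicate 2 (log2 0.34 ± 0.79, SE; edgeR adjusted p = 0.808). The 9 markers of T cells, of which 8 were measured, summed to 215.1, 133.2 and 307.9 with artemisinin, against 121.7, 163.6 and 136.7 in the model, and were highest in the same mice as Ifng. Natural killer cell markers summed to 81.7, 76.7 and 50.0 with artemisinin, against 58.0, 63.9 and 41.4 in the model. Artemisinin replicate 3 was the lowest of its group for this sum, and model replicate 2 the highest of the model mice. Ciliated and club cell markers summed to 71689, 20627 and 27871 with artemisinin, against 8004, 20283 and 13185 in the model, highest in artemisinin replicate 1. All 7 of these had positive fold changes (median log2 1.43), where 53.2% of all genes did so, and 0 were called by edgeR. An unadjusted p under 0.05 with a positive fold change was found for 5 (71.4%), against 13.7% of all genes. DESeq2 called 5 of the 7 higher, where it called 7.7% of all genes higher. Artemisinin replicate 2 held 5881 normalised CPM of 7 skeletal muscle markers, against at most 56.7 in any other library. Keratinocyte markers summed to 472.5 in the same library, against at most 10.3 in any other. The part of these differences in the levels of the 38 genes was not tested.

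Upstream of these genes little was called. Of the interferon ligands Ifng was tested, and Ifnz had 0 counts in the artemisinin libraries and 2 in the model libraries. Ifnb1 and the other ligand genes listed were not analysed here. None of the 6 receptor genes was called by edgeR, 1 having an unadjusted p under 0.05, while DESeq2 called 1 higher. That gene was Ifngr1, the ligand-binding chain of the type II receptor, with 219.0, 233.1 and 266.9 normalised CPM with artemisinin, against 149.2, 160.6 and 153.3 in the model. The groups lay well apart, but the adjusted p was 0.0537 (log2 0.63 ± 0.14, SE; edgeR). Ifngr2, Ifnar1 and Ifnar2 had log2 fold changes of −0.02 ± 0.19, −0.14 ± 0.12 and 0.20 ± 0.13 (SE).

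Of 20 tested signalling genes upstream, 1 rose and 0 fell (5%, where 4.47% of all genes were called in either direction), so the share was near the background. Artemisinin values lay wholly below model values for 5 of the 20 (25%), against 17.3% of all genes. The gene that rose was Irf5, a factor that drives inflammatory cytokines in myeloid cells, with 91.7, 59.5 and 74.8 normalised CPM with artemisinin, against 29.9, 30.7 and 32.6 in the model (log2 1.28 ± 0.18, SE; edgeR adjusted p = 0.0182). Of 10 inhibitors of the pathway, 1 rose and 0 fell (10%, where 2.17% of all genes were called higher and 4.47% in either direction). The inhibitor that rose was Ptpn6, the phosphatase gene of blood cells, with 159.1, 133.2 and 168.4 normalised CPM with artemisinin, against 99.0, 92.5 and 98.4 in the model (log2 0.67 ± 0.14, SE; edgeR adjusted p = 0.0464). Artemisinin values lay wholly above model values for 4 of the 10 (40%), against 16.3% of all genes. An unadjusted p under 0.05 with a positive fold change was found for 3 (30%), against 13.7% of all genes. DESeq2 called 3 of the 10 higher, where it called 7.7% of all genes higher. The calls of Irf5 and Ptpn6 were both lost without any 1 of the model libraries, and that of Ptpn6 also without artemisinin replicate 1 or 3. The chemokine genes Cxcl9 and Cxcl10, targets of type II and of both interferons, were not called. Cxcl9 had 4.25, 6.58 and 14.2 normalised CPM with artemisinin, against 22.7, 16.1 and 11.9 in the model (log2 −1.01 ± 0.46, SE; edgeR adjusted p = 0.224). Cxcl10 stood at 4.54, 4.25 and 6.56 normalised CPM with artemisinin, against 4.65, 4.76 and 3.84 in the model (log2 0.21 ± 0.30, SE; edgeR adjusted p = 0.684).

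Among further interferon-stimulated genes outside the 38, 6 of 59 tested rose and 0 fell in edgeR's test, with a median log2 of 0.21. The share that rose was 10.2%, against 2.17% of all genes, and its difference from the 38 genes was not tested. An unadjusted p under 0.05 with a negative fold change was found for 4 of the 59 (6.78%), against 11% of all genes. With a positive fold change it was found for 16 (27.1%), against 13.7%. Artemisinin values lay wholly below model values for 4 of the 59 (6.78%), against 17.3% of all genes, and wholly above them for 17 (28.8%), against 16.3%. Slfn8, a Schlafen family gene, had 31.0, 28.5 and 24.6 normalised CPM with artemisinin, against 3.92, 4.45 and 3.69 in the model. Slfn8 rose strongly (6.97-fold, log2 2.80 ± 0.19, SE; edgeR adjusted p = 0.00372) and was called in all 11 alternative settings. Slfn4, a Schlafen gene of myeloid cells, had 138.4, 69.2 and 250.6 normalised CPM with artemisinin, against 10.1, 14.5 and 8.64 in the model (log2 3.79 ± 0.49, SE; edgeR adjusted p = 0.0149). Ms4a4c, a membrane protein gene of leukocytes, and Ifi204, a gene of the DNA-sensing p200 family, rose by 2.64 ± 0.32 and 1.77 ± 0.18 on the log2 scale (SE; edgeR adjusted p = 0.013 and 0.00956). Slfn1 and Slfn2 rose by 1.70 ± 0.29 and 1.05 ± 0.18 on the log2 scale (SE; edgeR adjusted p = 0.0273 and 0.0285). For each of the 6 genes every artemisinin value lay above every model value. DESeq2 called 14 of the 59 higher and 1 lower, where it called 7.7% of all genes higher and 6.37% lower. The gene called lower was Tgtp2, an IRG GTPase gene whose reads may be shared with a close paralog. Without artemisinin replicate 3 edgeR also called Tgtp2 lower. For genes higher, edgeR called 4 without artemisinin replicate 1 or 3, 13 without artemisinin replicate 2, and 1, 3 and 1 without model replicate 1, 2 and 3.

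**Figure D4:**
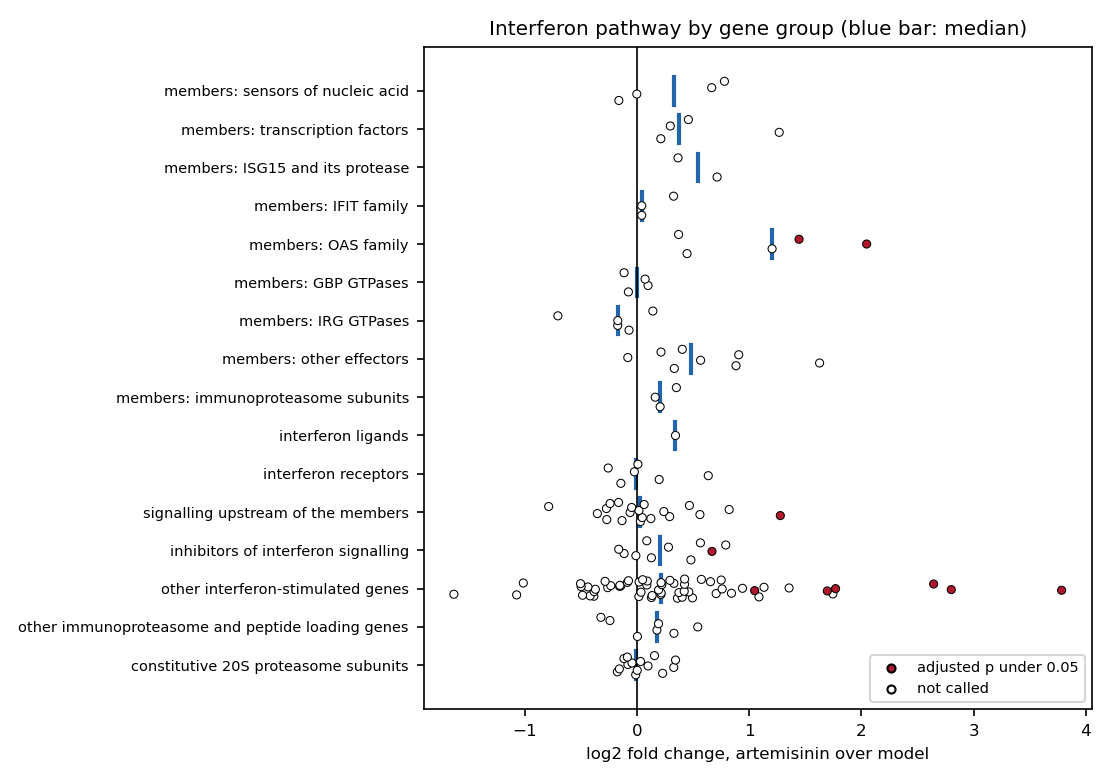
Log2 fold change of artemisinin over the model for every tested gene, by subgroup of the 38 genes (top rows) and by further groups of the interferon pathway (lower rows), with blue bars for group medians. Filled points have an adjusted p under 0.05, and the largest, Slfn4 at 3.79, lies in the group of other interferon-stimulated genes.

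Markers of some immune cell types also differed. Of 10 monocyte markers 5 rose and 0 fell, where 2.17% of all genes rose, among them Ccr2, the chemokine receptor gene of classical monocytes, with 238.9, 252.8 and 321.9 normalised CPM with artemisinin, against 59.1, 62.6 and 45.9 in the model (log2 2.28 ± 0.20, SE; edgeR adjusted p = 0.00645). Vcan and Cx3cr1 rose by 2.75 ± 0.25 and 1.06 ± 0.14 on the log2 scale (SE; edgeR adjusted p = 0.00682 and 0.015). Ly6c2 had 5.65, 8.88 and 108.9 normalised CPM with artemisinin, against 51.0, 24.3 and 35.5 in the model. Artemisinin replicates 1 and 2 lay below and replicate 3 above every model mouse, and without artemisinin replicate 3 edgeR called Ly6c2 lower. The summed level of the 10 ranged from 1848 to 5748 normalised CPM with artemisinin and from 3236 to 4137 in the model. Most of it came from Chil3, at means of 2421 with artemisinin and 2561 in the model, and Ace, at 984.0 and 940.8. Neither was called, so the sum says little about the markers that rose. Without model replicate 1, 2 or 3 edgeR called 0, 2 and 1 of the 10. Of 12 neutrophil markers 6 rose, with sums of 800.7 to 5163 normalised CPM with artemisinin and 130.5 to 195.5 in the model, and 0 of them were called without any 1 of the model libraries. The 8 markers of plasmacytoid dendritic cells, a main source of type I interferon, include Bst2 of the 38 genes. They summed to 329.4 to 381.8 with artemisinin and 227.2 to 289.0 in the model, with 0 called by edgeR, 0 at an unadjusted p under 0.05 and 0 by DESeq2. Much of this sum came from Tcf4, at means of 191.4 with artemisinin and 142.5 in the model, and Bst2, at 97.2 and 83.9. Siglech and Ccr9 had lower means with artemisinin, 4.24 and 2.81, against 5.42 and 3.09 in the model. Of the 8 markers, 5 had positive fold changes (62.5%, against 53.2% of all genes). No marker of these 3 lists was at 0 in all libraries of a group. Alveolar type 2 markers went the other way, with 5 of 9 lower and 0 higher, where 2.3% of all genes were called lower. All 9 lay wholly below the model values (17.3% of all genes). The 9 also had an unadjusted p under 0.05 with a negative fold change (11% of all genes). Without any 1 of the model libraries, 0 to 1 were called lower. The part of any of these cell types in the levels of the 38 genes was not tested.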

How the data were processed

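RNA-seq libraries of 6 mice with lung cancer, 3 given artemisinin and 3 of the model, were analysed. A mirVana kit for RNA and a stranded TruSeq mRNA kit for libraries were used, per the labels' protocols. Per the submitters' processing notes the build was GRCm38 (mm10). Aligner, annotation, counting tool and strand setting are not given in the sources used here. What the authors deposited were read counts per gene, not normalized, and FPKM, which were the same counts divided by library total and a value per gene (largest relative gap 5.26e-07 over 15462 genes). FPKM was used only to compare levels between genes, without a test. Libraries held 25566173 to 33126585 counts with artemisinin and 32964061 to 34745497 in the model.

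Counts were fitted with edgeR 4.0.16 in R 4.3.3 over the whole table (filterByExpr, TMM factors, robust glmQLFit and glmQLFTest, Benjamini-Hochberg adjustment over 15242 genes, threshold 0.05). Each standard error is the size of the log2 change over the square root of F. Normalised CPM divide counts by the TMM-scaled library size. The labels do not say whether mice were kept, dosed or prepared separately, and p-values set the group difference against the spread between these libraries only. DESeq2 1.42.0, other scaling, no filter, a replicate block and leaving out each library were run as alternatives. Coordinates, overlaps and promoters came from RefSeq on GRCm38.p6, which matched all 38 genes by Entrez number. The annotated spans of Stat2 and Rtp4 overlap those of Apof and Masp1, so without a known strand setting some of their reads may belong to the neighbour.

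The members and lists were chosen with earlier results of these data known. Genes named outside the 38 were the receptor chains, Ifng, Cxcl9, Cxcl10 and the standard proteasome subunits whatever their result, and up to 6 called genes of each pathway list with the smallest p. Another gene covered by the rule was left out. Marker genes, Tgtp2 and Ifi27 were chosen after their values were seen. Markers of conventional dendritic cells, natural killer cells, B cells, endothelium, macrophages and keratinocytes were measured as well, and had 0, 0, 0, 0, 2 and 0 called members. The 2 calls among 11 macrophage markers (18.2%, against 4.47% of all genes in either direction) went opposite ways. Csf1r rose (log2 0.87, edgeR adjusted p = 0.0216) and Marco fell (log2 −2.50, edgeR adjusted p = 0.0303).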

Additional observations from a re-analysis of the deposited data

How the results depend on the processing

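The fold changes of Oas3 and Oasl1 kept their sign in all 11 alternative settings. Over all genes, DESeq2 called 1251 higher and 1035 lower, and leaving out 1 library gave 6 to 670 higher and 11 to 713 lower. Of the 38 genes, DESeq2 called 7 higher, edgeR without the low-count filter 1, and edgeR with 1 library left out 0 to 4. With artemisinin replicate 2 left out the counts rose, and with any other library left out they fell, most when it was a model library. Deviations from the group means of same-numbered mice correlated at −0.138 to 0.0419, so the numbers were not taken as pairs, and not every mouse correlated best with its own number. With the replicate number as a block edgeR called 65 genes higher and 63 lower, and 0 of the 38.

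Scaling by library totals alone put the all-gene median at 0.15 on the log2 scale (0.04 with TMM), and edgeR called 464 genes higher and 319 lower: Ddx58, Gbp2, Igtp, Parp14, Psmb5 and Ifngr2 then stood at 0.10, 0.025, 0.039, 0.025, 0.10 and 0.0875, and the immunoproteasome median at 0.32. In the block fit Ifngr2 and Psmb5 stood at 0.0023 and 0.019. The immunoproteasome median ranged from 0.031 to 0.41 with 1 library left out. Ranges over those fits that crossed 0, all for genes not called, were −0.10 to 0.054 for Ddx58, −0.32 to 0.0025 for Ifih1, −0.18 to 0.44 for Ifit1, −0.14 to 0.31 for Ifit2, −0.19 to 0.034 for Gbp2, −0.023 to 0.28 for Gbp3, −0.13 to 0.22 for Gbp5, −0.33 to 0.080 for Gbp7, −0.37 to 0.15 for Igtp, −0.36 to 0.039 for Irgm2, −0.25 to 0.31 for Ifi47, −0.088 to 0.38 for Psmb9, −0.23 to 0.18 for Psmb5, −0.16 to 0.19 for Ifngr2, −0.57 to 1.04 for Ifng and −0.044 to 0.33 for Cxcl10. The cause of these shifts was not tested. With 3 mice a group, the spread between mice limits what can be called.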
